A study of Homo sapiens with 18 samples.

Results

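The 10 genes described here are the classical set by which an epithelial-to-mesenchymal transition (EMT) is scored. They are the cadherins CDH1, CDH2 and CDH3, the intermediate filament gene VIM, and the transcription factors SNAI1, SNAI2, TWIST1, TWIST2, ZEB1 and ZEB2. They were taken by name from the 58288 gene IDs counted in each of 18 RNA-seq libraries, and all 10 had enough counts to be tested among 22023 genes. The libraries come from the ovarian cancer cell lines Kuramochi, OVCAR4 and OVCAR8, each GFP-labeled and either seeded on a 3D omentum culture for 48 h or grown directly on plastic. Each line and culture had 3 libraries, and the study's methods state 3 independent experiments per line. The libraries are numbered 2, 4 and 8 (Kuramochi), 42, 4 and 6 (OVCAR4) or 4, 61 and 62 (OVCAR8). Values below follow this order of libraries unless a library is named. The 3D omentum culture is a dish of primary human omental fibroblasts in collagen I under a layer of primary mesothelial cells, set up 24 h ahead of seeding. The cancer cells were recovered from it by fluorescence activated cell sorting for GFP, and those from plastic passed through the sorter as well. The comparison of 3D with plastic addresses the changes that follow when cancer cells first settle on the omentum. Each line stands for itself, so a difference between lines is measured against the spread between libraries of a line and not between patients.

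CDH1 (E-cadherin) holds epithelial cells together at adherens junctions, CDH2 (N-cadherin) is the cadherin of mesenchymal and neural cells, and CDH3 (P-cadherin) is found in basal epithelia and in many carcinomas. VIM (vimentin) forms the intermediate filaments of mesenchymal cells. SNAI1 (Snail), SNAI2 (Slug), ZEB1 and ZEB2 are zinc finger proteins that bind E-box sequences and repress CDH1 and other epithelial genes, while TWIST1 and TWIST2 are basic helix-loop-helix factors that promote the mesenchymal state. Ovarian carcinoma cells often hold epithelial and mesenchymal markers side by side, and the mesothelium and fibroblasts of the omentum express VIM and several of these factors themselves.

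In GRCh38 (GENCODE 44 annotation) CDH3 and CDH1 are neighbours on the plus strand of chromosome 16, at chr16:68636189-68727468 and chr16:68737292-68835537. CDH2 lies at chr18:27932879-28177946 on the minus strand, and VIM at chr10:17228241-17237593 on the plus strand. Of the factors, SNAI1 is at chr20:49982980-49988886 (plus), TWIST1 at chr7:19020991-19117636 (minus), TWIST2 at chr2:238848032-238910534 (plus), ZEB1 at chr10:31318495-31529814 (plus) and ZEB2 at chr2:144364364-144521057 (minus). Several members share exon bases with a gene on the opposite strand, and no source used here states the strand setting of the counting, so how shared reads were assigned is uncertain. ZEB1-AS1 is the partner with the largest share, with 2429 counts over the 18 libraries beside 11285 for ZEB1. VIM-AS1 had 1494 counts beside 865982 for VIM, CDH3-AS1 had 309 beside 33202 for CDH3, and ZEB2-AS1 had 18 beside 11418 for ZEB2. Other genes that overlap members had 233 counts or fewer each.

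The E-box bound by the Snail and ZEB proteins is CACCTG, or CAGGTG on the other strand. It was searched on both strands in the RefSeq promoter windows of GRCh38.p14, which run from 250 bases before to 50 bases after a transcript's start. Of 35116 such windows 20.6% held at least 1 match, 3.49% at least 2 and 0.094% at least 5. Windows were at hand for CDH2, VIM, TWIST2, ZEB1 and ZEB2, and the other members with none are CDH1, CDH3, SNAI1, SNAI2 and TWIST1. No match was found in the windows of CDH2, VIM, TWIST2 and ZEB2, while of the 7 windows of ZEB1 1 held 3 matches, 1 held a single match and 5 held none. Among 12 of 17 epithelial junction genes with a window, 8 had at least 1 match and 6 at least 2 in a window, beside 24.1% and 4.22% of all 27305 genes with a window. The ZEB1 window is shown as the only member window with several matches, and those of CLDN7 (a claudin of tight junctions) and CRB3 (a cell polarity protein) as the junction genes with the most, 5 each. Capitals mark the motif on either strand, and each sequence is written 5′ to 3′ in the direction of the gene, from chr10:31318966-31319265 (plus), chr17:7262429-7262728 (minus) and chr19:6464021-6464320 (plus).
ZEB1: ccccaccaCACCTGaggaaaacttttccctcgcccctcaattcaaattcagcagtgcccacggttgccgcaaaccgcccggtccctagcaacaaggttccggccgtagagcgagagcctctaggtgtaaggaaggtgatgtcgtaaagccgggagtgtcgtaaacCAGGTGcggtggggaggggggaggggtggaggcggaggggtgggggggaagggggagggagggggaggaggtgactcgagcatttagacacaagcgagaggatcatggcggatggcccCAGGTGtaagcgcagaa
CLDN7: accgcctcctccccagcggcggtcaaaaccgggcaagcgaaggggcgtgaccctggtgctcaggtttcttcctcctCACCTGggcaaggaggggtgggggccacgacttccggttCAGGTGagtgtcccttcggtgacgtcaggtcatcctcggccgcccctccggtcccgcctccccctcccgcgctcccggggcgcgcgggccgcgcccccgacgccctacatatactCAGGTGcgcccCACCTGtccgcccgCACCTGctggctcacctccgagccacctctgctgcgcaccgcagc
CRB3: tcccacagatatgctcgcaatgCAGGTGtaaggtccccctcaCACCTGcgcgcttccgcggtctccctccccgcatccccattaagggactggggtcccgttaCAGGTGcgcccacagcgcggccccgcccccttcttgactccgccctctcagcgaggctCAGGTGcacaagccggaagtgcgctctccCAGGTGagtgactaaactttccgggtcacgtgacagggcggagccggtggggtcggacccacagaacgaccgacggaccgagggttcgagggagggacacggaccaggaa
A match describes the letters of the window and says nothing of binding in these cells.

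Total counts ranged from 28415048 to 43142540 per library, and levels are given as CPM, counts relative to the library size after TMM scaling. A gene is called changed at an adjusted p under 0.05 in the edgeR quasi-likelihood test over all 22023 genes. Of 9 markers of ovarian cancer cells (PAX8, WT1, keratins and others) none was at 0 counts in a group of Kuramochi or OVCAR4. WT1, however, had only 2 counts in OVCAR4 on plastic and 58 on 3D, and in OVCAR8 21 on plastic and 78 on 3D. In OVCAR8 MECOM had 0 counts on 3D and 1 on plastic, MUC16 had 6 on 3D and 0 on plastic, and SOX17 had 3 on 3D and 2 on plastic. The summed level of the 9 markers ranged from 3030 to 6575 CPM and came mostly from the keratins. The summed level of 10 fibroblast markers differed between the cultures in the sorted cells: 579 to 1359 CPM against 347 to 444 CPM in Kuramochi, 140 to 1189 CPM against 21.2 to 21.6 CPM in OVCAR4, and 690 to 2909 CPM against 661 to 725 CPM in OVCAR8. On plastic 2 of the 10 were at 0 counts in Kuramochi, 2 in OVCAR4 and 5 in OVCAR8, and no marker was at 0 in any 3D group. OVCAR8 3D 4, at 690 CPM, lay within the range of its plastic libraries, where COL1A1 alone averaged 655 CPM. That library still had 8.33 CPM of COL1A2 and 1.25 CPM of DCN, POSTN and FAP together. All of these were at 0 in every OVCAR8 plastic library. The sum of 7 mesothelial markers was 186 to 222 CPM on 3D against 217 to 352 CPM on plastic in Kuramochi, 129 to 140 CPM against 109 to 181 CPM in OVCAR4, and 157 to 207 CPM against 116 to 137 CPM in OVCAR8. On plastic MSLN and UPK3B read 203 and 57.2 CPM in Kuramochi, 5.56 and 125 CPM in OVCAR4, and 122 and 0.701 CPM in OVCAR8. On 3D they read 167 and 23.6 CPM, 8.55 and 114 CPM, and 176 and 0.818 CPM in the same order of lines. These genes make up most of the sums, which therefore say little of mesothelial RNA. CALB2 went from 0 to 60 counts in Kuramochi, 6 to 60 in OVCAR4 and 99 to 406 in OVCAR8. PRG4 went from 0 to 240, 7 to 69 and 1 to 196 counts in the same order. LRRN4 went from 683 to 1085, 229 to 632 and 327 to 777 counts. KRT5 went from 70 to 154 counts in Kuramochi, 422 to 273 in OVCAR4 and 0 to 2 in OVCAR8. ITLN1 stayed at 3 counts or fewer in every group. COL1A2, a fibroblast collagen, read 180, 38.2 and 275 CPM in the Kuramochi 3D libraries 2, 4 and 8, 31.9, 308 and 303 CPM in OVCAR4 3D 42, 4 and 6, and 8.33, 599 and 367 CPM in OVCAR8 3D 4, 61 and 62. Kuramochi 3D 4, OVCAR4 3D 42 and OVCAR8 3D 4 therefore stand apart from the other libraries of their groups in this respect. In bulk RNA, fewer cells of a type and less RNA per cell cannot be told apart. There were 3 pairs of libraries (OVCAR4 3D 4 and 6, OVCAR8 3D 61 and 62, OVCAR8 plastic 4 and 62) closer to each other than any other replicates. Their chi-square of counts per degree of freedom was 1.89 to 2.93, against 8.64 to 102 for the other pairs. They differed beyond counting noise and were kept separate, but this cannot show that they come from separate experiments.

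On plastic the lines split into an epithelial one, OVCAR4, and a pair with mesenchymal markers, Kuramochi and OVCAR8. All 10 genes differed between OVCAR4 and Kuramochi, 2 higher and 8 lower in OVCAR4, where 30.1% and 31.6% of all genes tested were higher and lower. All 10 also differed between OVCAR8 and OVCAR4, 7 higher and 3 lower in OVCAR8, beside 33.6% and 35.3% of all genes. OVCAR8 and Kuramochi differed in 6, of which 4 were higher and 2 lower in OVCAR8, beside 32.2% and 35.5% of all genes.

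CDH1 set OVCAR4 apart from the other lines. It read 162, 109 and 140 CPM in the plastic libraries 42, 4 and 6 of OVCAR4, against 0.0879, 0.165 and 0.849 CPM in Kuramochi 2, 4 and 8 and 0.728, 1.45 and 1.10 CPM in OVCAR8 4, 61 and 62. No library of OVCAR4 came near those of the other lines. The log2 difference from Kuramochi was 8.66 (SE 0.60, adjusted p = 3.14e-09), and OVCAR8 lay below OVCAR4 (log2 difference -6.98, SE 0.53, adjusted p = 5.48e-09). The first of these rises to 10.04 without Kuramochi plastic 8, the Kuramochi library with the most CDH1 counts. OVCAR8 was also called above Kuramochi (log2 difference 1.68, SE 0.69, adjusted p = 0.0401), but their libraries overlap. That call was lost without any of 9 single libraries (Kuramochi plastic 2 or 4, OVCAR4 3D 4 or 6, any OVCAR4 plastic library, OVCAR8 plastic 61 or 62; adjusted p 0.05005 to 0.167), with only these groups in the fit (0.0525), with the close libraries summed (0.0623) and with DESeq2 (0.0742), and the difference was 3.02 without Kuramochi plastic 8.

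CDH3 followed CDH1 in OVCAR4 but not in the other lines. Its plastic libraries read 98.0, 112 and 115 CPM in OVCAR4, 6.06, 12.9 and 12.03 CPM in Kuramochi, and 1.66, 3.88 and 1.47 CPM in OVCAR8, with no overlap between lines. OVCAR4 was higher than Kuramochi by 3.39 on the log2 scale (SE 0.48, adjusted p = 1.46e-05), and OVCAR8 was lower than Kuramochi (log2 difference -2.15, SE 0.50, adjusted p = 0.00126). Without OVCAR8 plastic 61 the latter was -2.75, and the OVCAR8 to OVCAR4 difference moved from -5.55 to -6.15.

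CDH2 had the reverse order. The plastic libraries read 163, 136 and 166 CPM in OVCAR8, 84.6, 72.1 and 77.1 CPM in Kuramochi and 19.4, 13.2 and 17.4 CPM in OVCAR4, so that the lines formed separate steps. OVCAR8 exceeded Kuramochi by 0.99 on the log2 scale (SE 0.14, adjusted p = 3.84e-06), and OVCAR4 lay below Kuramochi (log2 difference -2.22, SE 0.14, adjusted p = 2.97e-10). N-cadherin mRNA was thus low in OVCAR4 but measured with at least 444 counts in each plastic library.

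VIM was abundant in Kuramochi (1370, 2106 and 1946 CPM) and OVCAR8 (2203, 1973 and 2109 CPM) and low in OVCAR4 (26.8, 51.5 and 45.6 CPM) on plastic. Kuramochi and OVCAR8 overlapped and were not called different (log2 difference of OVCAR8 0.21, 95% interval -0.33 to 0.75, adjusted p = 0.474). OVCAR4 was 43.8-fold lower than Kuramochi (log2 difference -5.45, SE 0.31, adjusted p = 6.55e-11).

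**Figure D1:**
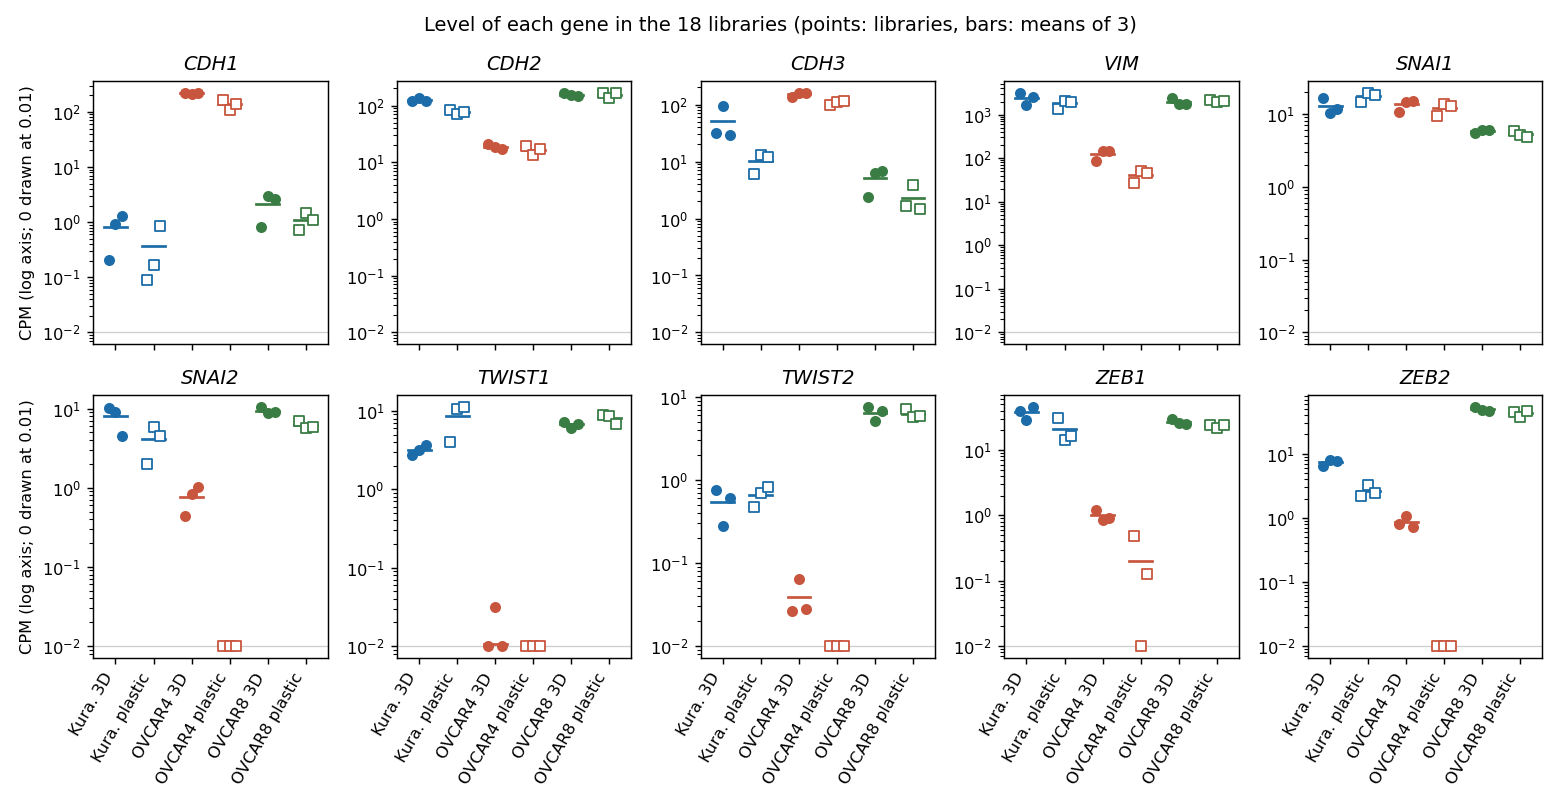
Level of each of the 10 genes in CPM (log axis) in the 18 libraries, with filled circles for 3D, open squares for plastic and bars for the mean of 3; a library with 0 counts is drawn at 0.01. OVCAR4 is high in CDH1 and CDH3 and low or at 0 in SNAI2, TWIST1, TWIST2, ZEB1 and ZEB2, while SNAI1 is at 4.90 CPM or more in every library.

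Of the transcription factors, 4 had no count at all in OVCAR4 on plastic: SNAI2, TWIST1, TWIST2 and ZEB2 were at 0 in all 3 libraries, which allows at most 0.0309 CPM for the group by a floor of 3 counts. SNAI2, which lies at chr8:48917598-48921740 on the minus strand, read 1.99, 5.84 and 4.47 CPM in Kuramochi and 6.90, 5.68 and 5.91 CPM in OVCAR8, at least 133-fold and at least 200-fold higher than OVCAR4. For TWIST1 the bounds were 275-fold in Kuramochi (4.04, 10.6 and 11.3 CPM) and 262-fold in OVCAR8 (8.94, 8.54 and 6.89 CPM). SNAI2 and TWIST1 were therefore measured at 1.99 CPM or more in every plastic library of Kuramochi and OVCAR8, and not detected at this depth in OVCAR4.

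TWIST2 and ZEB2 also separated OVCAR8 from Kuramochi. TWIST2 read 7.14, 5.68 and 5.86 CPM in OVCAR8 against 0.469, 0.688 and 0.812 CPM in Kuramochi (log2 difference 3.25, SE 0.31, adjusted p = 1.10e-07). ZEB2 read 45.2, 38.01 and 46.2 CPM in OVCAR8 against 2.17, 3.30 and 2.40 CPM in Kuramochi (log2 difference 4.03, SE 0.19, adjusted p = 2.13e-11). In neither gene did the libraries overlap. Against OVCAR4 the bounds were 20.9-fold in Kuramochi and 202-fold in OVCAR8 for TWIST2, and 85.9-fold and 1402-fold for ZEB2. Every bound of this kind is 1.53 times lower without OVCAR4 plastic 4 (917-fold for ZEB2 in OVCAR8, for example, and 13.7-fold for TWIST2 in Kuramochi).

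ZEB1 was shared by the mesenchymal-marker lines. It read 31.3, 14.3 and 16.6 CPM in Kuramochi and 24.1, 21.8 and 24.1 CPM in OVCAR8, overlapping and not called different (log2 difference 0.17, 95% interval -0.50 to 0.84, adjusted p = 0.652). OVCAR4 had 15, 0 and 4 counts, or 0.476, 0 and 0.125 CPM. The difference of OVCAR4 from Kuramochi was -6.69 on the log2 scale (SE 0.49, adjusted p = 2.08e-09), and moved to -8.32 without OVCAR4 plastic 42 and to -6.07 without OVCAR4 plastic 4. The difference of OVCAR8 from OVCAR4 moved likewise from 6.86 to 8.49 and 6.23.

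SNAI1 was the exception to the split. Its plastic libraries read 14.6, 19.5 and 18.3 CPM in Kuramochi, 9.34, 13.9 and 12.8 CPM in OVCAR4, and 5.91, 5.09 and 4.90 CPM in OVCAR8. Snail mRNA was thus lowest in OVCAR8, a line with abundant VIM and CDH2, and OVCAR4 held more of it than OVCAR8 (log2 difference of OVCAR8 -1.18, SE 0.20, adjusted p = 4.30e-05). OVCAR8 was 3.29-fold lower than Kuramochi (adjusted p = 5.68e-07). OVCAR4 was called below Kuramochi (log2 difference -0.54, SE 0.20, adjusted p = 0.0229), a call lost without Kuramochi plastic 4 or 8 or OVCAR4 plastic 42 (adjusted p 0.0777 to 0.118) and with only these groups in the fit (0.0609).

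Levels of different genes were compared per kb of exon. In OVCAR8 on plastic the 5 factors TWIST1, SNAI1, TWIST2, ZEB1 and SNAI2 lay within a narrow range of 1.88 to 4.07 CPM per kb, and VIM stood at 405 CPM per kb. In Kuramochi on plastic SNAI1 was the factor with the highest level, 10.3 CPM per kb, ahead of TWIST1 at 4.34 and ZEB1 at 2.39. SNAI1 was also the only factor above 1 CPM per kb in OVCAR4, where it read 7.05 CPM per kb on plastic and 7.96 CPM per kb on 3D. These values use the union of annotated exons, and the long annotated ZEB2 transcripts lower its value: by the MANE Select transcript ZEB2 in OVCAR8 on plastic would be 4.66 CPM per kb instead of 1.65.

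The ratio of VIM to CDH1 per kb spanned several orders of magnitude. It was 0.194, 0.553 and 0.382 in OVCAR4 plastic 42, 4 and 6 and 0.461, 0.793 and 0.794 in the 3D libraries 42, 4 and 6. In Kuramochi it ran from 2690 to 18294 on plastic and from 2085 to 17795 on 3D, and in OVCAR8 from 1602 to 3552 on plastic and from 701 to 3458 on 3D. OVCAR4 was separated from the other lines in every library, and the Kuramochi ratios rest on few CDH1 counts, 3 to 39 per library. The CDH2 to CDH1 ratio in OVCAR4 was lower on 3D (0.0554 to 0.0683) than on plastic (0.0845 to 0.0881), with no overlap. By the MANE Select lengths VIM would exceed CDH1 in OVCAR4 on 3D (58.7 against 45.3 CPM per kb), so the order of these genes depends on the length used, while the differences between lines do not.

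**Figure D2:**
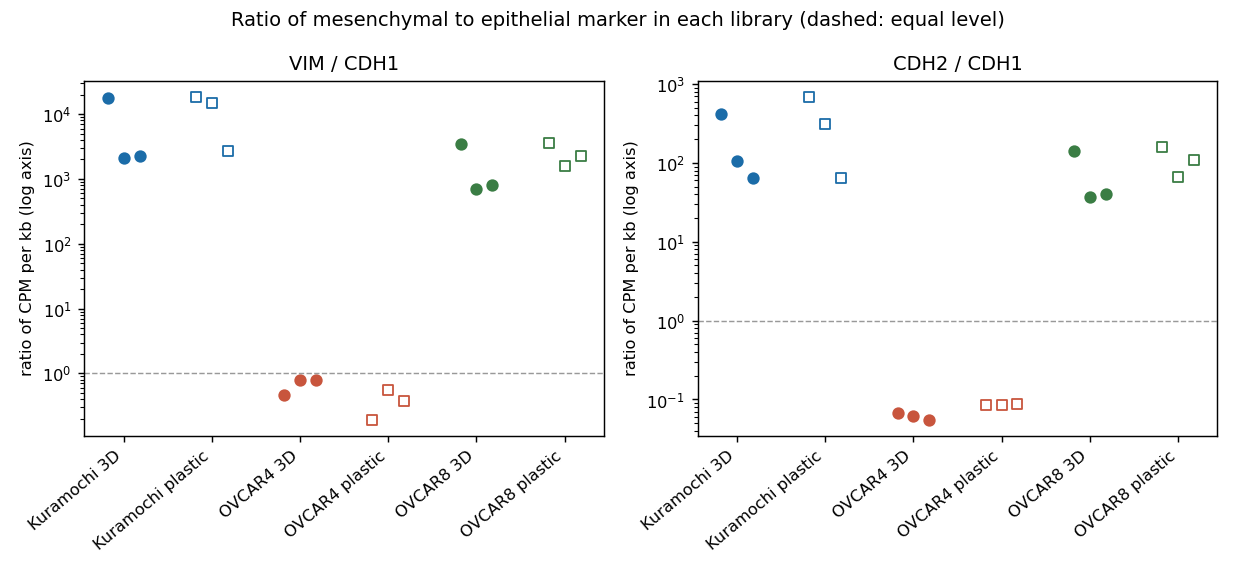
Ratio of VIM to CDH1 and of CDH2 to CDH1 (CPM per kb of exon, log axis) in each library, with filled circles for 3D and open squares for plastic; the dashed line marks equal levels. Every OVCAR4 library lies below 1 and every Kuramochi and OVCAR8 library at 36.5 or higher.

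In Kuramochi, cells from the 3D omentum culture had more CDH2, CDH3, ZEB1 and ZEB2 and less TWIST1 than cells from plastic. These were 4 genes higher and 1 lower of 10, where 14.4% of all genes tested were higher and 12.8% lower. The median log2 change of the 10 was 0.79, beside 0.02 for all genes. At the 2-fold minimum of the study's own call rule 3 remain, CDH3, ZEB2 and TWIST1.

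CDH3 had the largest rise, from 6.06, 12.9 and 12.03 CPM on plastic to 32.3, 93.6 and 29.0 CPM on 3D (libraries 2, 4 and 8). Every 3D library lay above every plastic one, and the log2 change was 2.33 (SE 0.46, adjusted p = 0.00251), or 1.57 without 3D replicate 4. CDH2 rose from 84.6, 72.1 and 77.1 CPM to 121, 138 and 120 CPM (log2 change 0.70, SE 0.14, adjusted p = 0.00178), again with no overlap. N-cadherin and P-cadherin therefore rose together in this line, and CDH3 was highest in library 4, which had the least COL1A2 of the 3D libraries of Kuramochi.

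ZEB2 went from 2.17, 3.30 and 2.40 CPM to 6.36, 8.06 and 7.75 CPM, a 2.81-fold rise (log2 change 1.49, SE 0.18, adjusted p = 9.04e-05) with no overlap. ZEB1 read 31.3, 14.3 and 16.6 CPM on plastic and 39.5, 29.1 and 46.3 CPM on 3D, and its cultures overlapped. The ZEB1 call (log2 change 0.89, SE 0.32, adjusted p = 0.0470) was lost in the fit of Kuramochi alone (0.0810), with the close libraries summed (0.105) and without any of 14 single libraries (Kuramochi 3D 2 or 8, Kuramochi plastic 4 or 8, OVCAR4 plastic 6, any OVCAR4 3D library, any OVCAR8 library; adjusted p 0.0508 to 0.205). In the 3D libraries ZEB1 was highest in 8 and lowest in 4, the order of COL1A2, whereas ZEB2 was highest in 4. The fibroblast sum was higher in all 3D libraries of Kuramochi than on plastic, and its part in these changes was not tested.

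TWIST1 fell in Kuramochi, from 4.04, 10.6 and 11.3 CPM on plastic to 2.77, 3.18 and 3.64 CPM on 3D (log2 change -1.43, SE 0.31, adjusted p = 0.00404). The groups did not overlap, although the plastic library 2 lay much closer to the 3D range than the other plastic libraries. TWIST2, its close relative, read 0.469, 0.688 and 0.812 CPM on plastic and 0.761, 0.278 and 0.601 CPM on 3D and was not called (log2 change -0.26, 95% interval -1.004 to 0.48, adjusted p = 0.616).

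The remaining 4 genes were not called in Kuramochi. SNAI2, which lies at chr8:48917598-48921740 on the minus strand, read 1.99, 5.84 and 4.47 CPM on plastic and 10.1, 9.11 and 4.54 CPM on 3D (log2 change 0.95, SE 0.35, adjusted p = 0.0543). It lies at the threshold: it was called with DESeq2 (0.0328) and without Kuramochi 3D 8, Kuramochi plastic 4 or OVCAR4 3D 42 (0.0250 to 0.0457). SNAI1 read 14.6, 19.5 and 18.3 CPM on plastic and 16.4, 10.4 and 11.6 CPM on 3D (log2 change -0.45, adjusted p = 0.0955), and was called lower without 3D replicate 2 (0.0203) or plastic replicate 2 (0.0402). VIM, at 1370, 2106 and 1946 CPM on plastic and 3146, 1646 and 2523 CPM on 3D, had a log2 change of 0.43 (95% interval -0.11 to 0.97, adjusted p = 0.225), and among the 3D libraries it was lowest in 4.

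CDH1 in Kuramochi stayed near the limit of detection, with 3, 6 and 23 counts on plastic and 6, 30 and 39 counts on 3D. That is 0.0879, 0.165 and 0.849 CPM against 0.208, 0.927 and 1.30 CPM, overlapping as groups but higher on 3D in each of the libraries 2, 4 and 8. The log2 change of 1.28 (SE 0.72, adjusted p = 0.205) was called when the library number entered as a replicate block, by which same-numbered libraries are compared (log2 change 1.27, adjusted p = 0.0255). It was also called without the filter on low counts (0.00053), but that fit gave far smaller adjusted p-values for several members. Without plastic replicate 8, which held 23 of the plastic counts, the log2 change was 2.61 (adjusted p = 0.0397).

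In OVCAR4, 4 mesenchymal genes that were low or absent on plastic were higher on 3D, VIM, SNAI2, ZEB1 and ZEB2, and no member was called lower. That is 4 of 10, where 15.2% of all genes were higher and 11.9% lower. The median change of the 9 members with enough counts, with genes at 0 on plastic set to their bound, was 0.67 on the log2 scale, beside 0.04 for all genes.

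VIM rose from 26.8, 51.5 and 45.6 CPM on plastic to 86.6, 146 and 147 CPM on 3D (libraries 42, 4 and 6). The cultures did not overlap, and the change was 3.06-fold (log2 change 1.61, SE 0.26, adjusted p = 0.000796). Even so, the highest OVCAR4 value lay far below the lowest of Kuramochi and OVCAR8, 1370 CPM.

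ZEB2 went from 0 counts in all 3 plastic libraries to 31, 34 and 26 counts on 3D, or 0.810, 1.08 and 0.723 CPM. This is at least 27.9-fold higher (adjusted p = 6.63e-06). SNAI2 went from 0 counts to 17, 26 and 37 counts, or 0.444, 0.829 and 1.03 CPM, at least 24.5-fold higher (adjusted p = 0.000422). The limits are 18.2-fold and 16.0-fold without OVCAR4 plastic 4. Both genes remained below their levels in Kuramochi and OVCAR8 on plastic, the lowest of which were 2.17 CPM for ZEB2 and 1.99 CPM for SNAI2.

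ZEB1 had 15, 0 and 4 counts on plastic and 47, 27 and 33 counts on 3D, or 0.476, 0 and 0.125 CPM against 1.23, 0.861 and 0.918 CPM. All 3D libraries lay above all plastic ones (log2 change 2.34, SE 0.57, adjusted p = 0.00720), and the change was 3.97 without plastic replicate 42 and 1.71 without plastic replicate 4. TWIST2 had 0 counts on plastic and 1, 2 and 1 counts on 3D (at least 1.23-fold higher, adjusted p = 0.0710), and this bound is 0.802 without plastic replicate 4. TWIST1 had 1 count among the 6 libraries, so no fold is given.

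The fibroblast markers were also higher on 3D in OVCAR4, and their part in these changes was not tested. COL1A2 was 9.65 times lower in 3D library 42 than in 4. VIM was lowest in 42 as well, but only 1.70 times below the highest library, and SNAI2 was 2.32 times below it. ZEB1 was highest in 42, and ZEB2 there lay between its levels in 4 and 6.

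The cadherins of OVCAR4 did not change in the direction opposite to VIM. CDH1 read 220, 216 and 217 CPM on 3D and 162, 109 and 140 CPM on plastic, with every 3D library above every plastic one. The log2 change of 0.67 (SE 0.38) was not called in the model of all lines (adjusted p = 0.208) and was called in the fit of OVCAR4 alone (0.64, adjusted p = 0.0153) and without the filter on low counts (0.00102). CDH3, at 138, 157 and 160 CPM on 3D and 98.0, 112 and 115 CPM on plastic, likewise did not overlap and was called only in the separate fit and without the filter on low counts (adjusted p = 0.431, 0.0229 and 0.0362 in turn). For CDH2 the cultures overlapped, at 21.3, 18.6 and 17.0 CPM against 19.4, 13.2 and 17.4 CPM (log2 change 0.19, 95% interval -0.11 to 0.48, adjusted p = 0.339). SNAI1 also overlapped, at 10.8, 14.6 and 15.3 CPM against 9.34, 13.9 and 12.8 CPM (log2 change 0.17, 95% interval -0.24 to 0.58, adjusted p = 0.541).

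**Figure D3:**
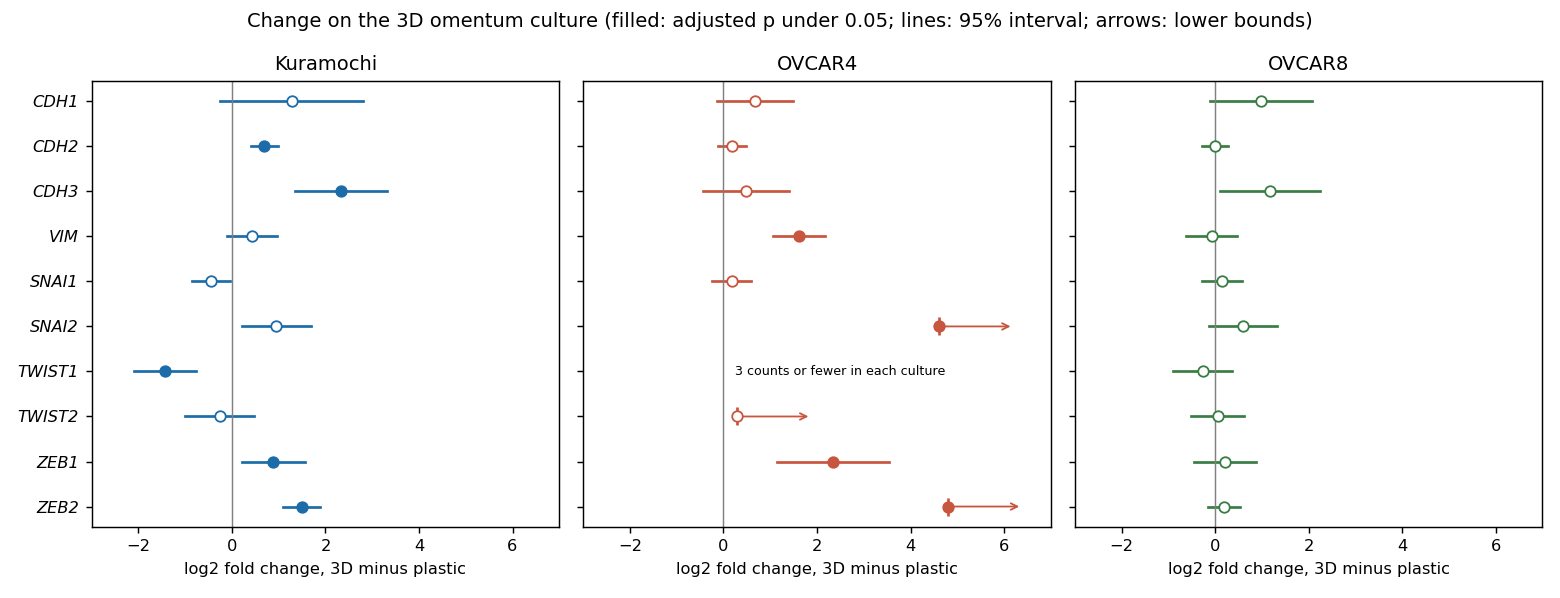
Log2 fold change on 3D against plastic for the 10 genes in each line, with 95% intervals; filled points have an adjusted p under 0.05, and arrows start at the lower bound for genes with 0 counts on plastic. In Kuramochi 4 genes are higher and TWIST1 is lower, in OVCAR4 4 are higher, and in OVCAR8 none is called.

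In OVCAR8, none of the 10 genes was called by edgeR or DESeq2, where 7.51% of all genes were higher and 3.32% lower. At an unadjusted p under 0.05 there was 1, CDH3. The median log2 change of the 10 was 0.17, beside 0.02 for all genes.

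The mesenchymal genes of OVCAR8 were high in both cultures. VIM read 2398, 1774 and 1803 CPM on 3D and 2203, 1973 and 2109 CPM on plastic, CDH2 164, 153 and 148 CPM against 163, 136 and 166 CPM. Their log2 changes were -0.07 (95% interval -0.61 to 0.46) and -0.00 (-0.29 to 0.28). For ZEB2 the libraries read 54.3, 47.8 and 46.0 CPM on 3D and 45.2, 38.01 and 46.2 CPM on plastic (log2 change 0.20, 95% interval -0.15 to 0.54, adjusted p = 0.473). ZEB1 was slightly higher in every 3D library, at 30.2, 25.8 and 25.2 CPM against 24.1, 21.8 and 24.1 CPM (log2 change 0.21, 95% interval -0.45 to 0.88, adjusted p = 0.708).

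SNAI2 in OVCAR8 was also higher in every 3D library, at 10.6, 8.68 and 8.91 CPM against 6.90, 5.68 and 5.91 CPM. It was not called in the model of all lines (log2 change 0.60, SE 0.34, adjusted p = 0.273) but was in the fit of OVCAR8 alone (0.62, adjusted p = 0.0115). TWIST1 (7.27, 6.07 and 6.90 CPM against 8.94, 8.54 and 6.89 CPM), TWIST2 (7.62, 5.09 and 6.71 CPM against 7.14, 5.68 and 5.86 CPM) and SNAI1 (5.54, 6.04 and 6.07 CPM against 5.91, 5.09 and 4.90 CPM) overlapped between cultures. Library 4 had the highest SNAI2, TWIST1 and TWIST2 of its group in both cultures, and on 3D it held the least COL1A2.

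The epithelial cadherins of OVCAR8 were low and uneven among the 3D libraries. CDH1 read 0.814, 2.97 and 2.58 CPM on 3D and 0.728, 1.45 and 1.10 CPM on plastic (log2 change 0.98, adjusted p = 0.230). CDH3 read 2.41, 6.33 and 6.76 CPM against 1.66, 3.88 and 1.47 CPM (log2 change 1.17, unadjusted p = 0.0344, adjusted p = 0.147). Without 3D replicate 4 both were called higher, CDH1 with an adjusted p of 0.0475 and CDH3 with one of 0.0373. That library had 71.9 times less COL1A2 than library 61, and 3.65 times less CDH1. On plastic, where COL1A2 had 0 counts in every OVCAR8 library, CDH1 was also lowest in library 4, while CDH3 was lowest in 62. The part of the fibroblast and mesothelial RNA in these levels was not tested.

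**Figure D4:**
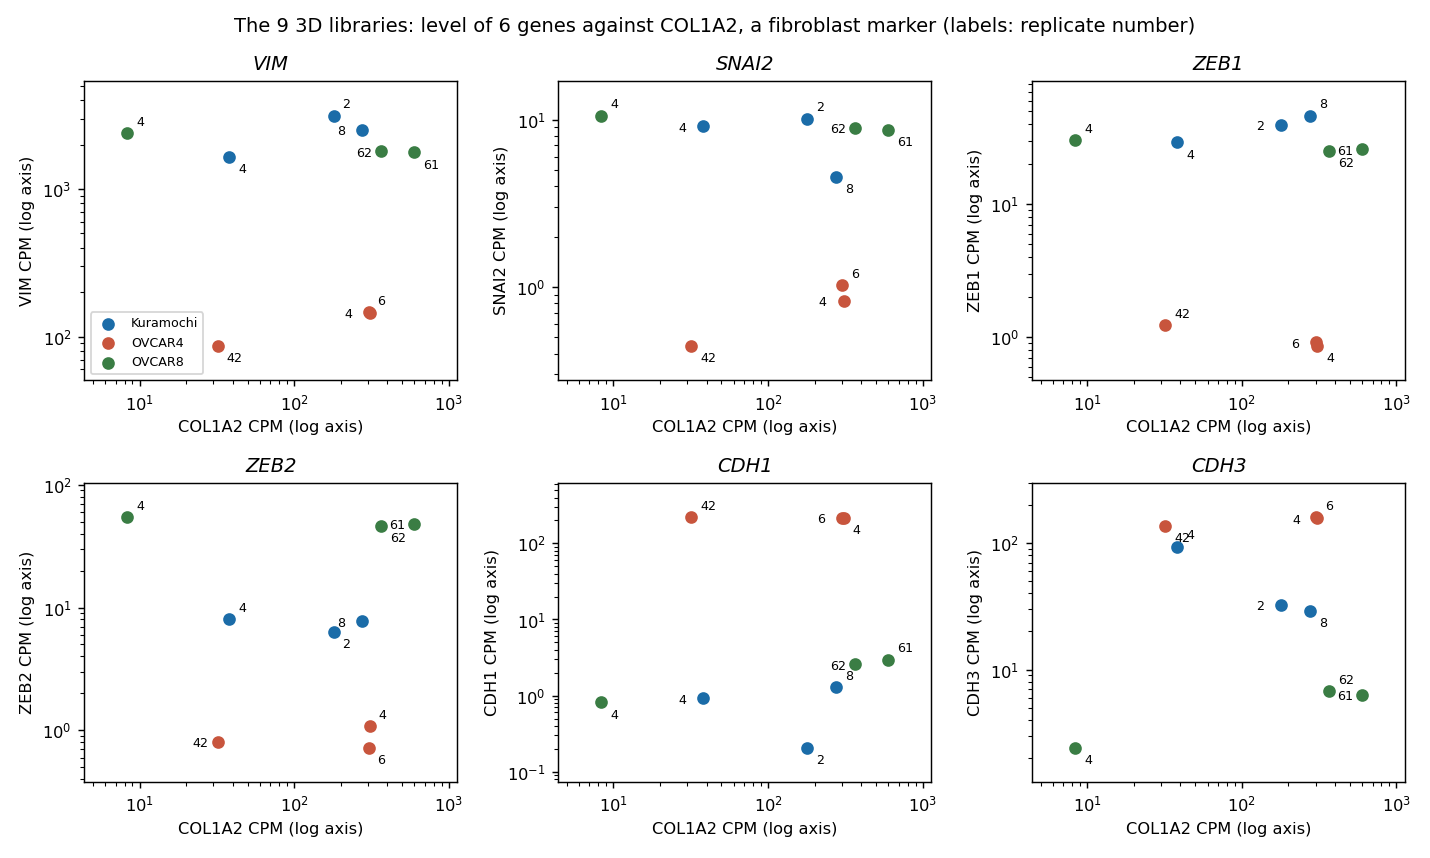
Level of VIM, SNAI2, ZEB1, ZEB2, CDH1 and CDH3 against that of the fibroblast collagen COL1A2 in the 9 libraries from 3D (CPM, both axes log), colored by line and labeled with the library number. In OVCAR4 COL1A2 spans 31.9 to 308 CPM while ZEB1 and ZEB2 stay within 0.723 to 1.23 CPM. In OVCAR8 CDH1 and CDH3 are lowest in library 4, which has the least COL1A2. On plastic, not drawn, CDH1 is lowest in OVCAR8 library 4 as well.

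The change with culture differed between the lines for 3 of the 10 genes by the test of the interaction of line and culture, which 6.17% of all genes passed. They were ZEB2 (adjusted p = 1.69e-05), SNAI2 (0.00826) and VIM (0.0215). ZEB2 was at least 27.9-fold higher on 3D in OVCAR4, 2.81-fold higher in Kuramochi and not called in OVCAR8. The test compares changes on the log2 scale and not amounts of CPM. Mean ZEB2 went from 0 to 0.872 CPM in OVCAR4, 2.62 to 7.39 in Kuramochi and 43.1 to 49.4 in OVCAR8. Mean SNAI2 went from 0 to 0.768, 4.10 to 7.93 and 6.17 to 9.38 CPM in the same order. In both genes OVCAR4 thus had the largest fold and the smallest rise in CPM. The VIM result was lost without OVCAR4 3D 4 or 6, OVCAR8 3D 61 or 62, or OVCAR8 plastic 4 or 62 (adjusted p 0.0518 to 0.0630), and with the close libraries summed both VIM (0.2503) and SNAI2 (0.0652) were lost. CDH2 (0.0677), ZEB1 (0.124), TWIST1 (0.164), CDH3 (0.168), TWIST2 (0.219), SNAI1 (0.249) and CDH1 (0.857) did not pass. Without Kuramochi plastic 2 CDH2, TWIST1 and ZEB1 passed too (0.0359, 0.00780 and 0.0305). CDH2 also passed without OVCAR4 plastic 4 (0.0279) and ZEB1 without OVCAR4 plastic 42 (0.0133), and both did with DESeq2. The calls in Kuramochi for CDH2, CDH3, ZEB1 and TWIST1 are therefore not shown to differ from the other lines in this model.

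Other regulators linked to EMT were examined as a list of 17, of which 16 were tested. In Kuramochi 7 were higher and 1 lower, in OVCAR4 4 were higher, in OVCAR8 4 were higher, and none was lower in the OVCAR lines. Of all genes tested, 14.4% were higher and 12.8% lower in Kuramochi, 15.2% and 11.9% in OVCAR4, and 7.51% and 3.32% in OVCAR8. These shares stand beside the culture counts of every list below, and no list was tested against them. SOX9, a factor of progenitor states, had the largest called rise in Kuramochi among those at 1 CPM or more, from 35.8 to 108 CPM (log2 change 1.597, SE 0.26, adjusted p = 0.000542). CTBP1, a corepressor that works with ZEB1, fell there from 191 to 135 CPM (log2 change -0.50, adjusted p = 0.0123). In OVCAR4 SOX4, a factor that acts downstream of TGF-beta, rose from 143 to 455 CPM (log2 change 1.67, SE 0.27, adjusted p = 0.000863). It was also called in Kuramochi (249.6 against 103 CPM, adjusted p = 0.00308) and OVCAR8 (20.8 against 9.15 CPM, adjusted p = 0.0116), values chosen for mention after they were seen. PRRX1, a factor of mesenchymal cells that fibroblasts express, rose in OVCAR8 from 0.524 to 2.70 CPM (log2 change 2.36, SE 0.65, adjusted p = 0.0342).

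Genes of the epithelial program were separated by line, and most were not called between cultures. On plastic 13 of 17 epithelial junction genes were higher in OVCAR4 than in Kuramochi and none lower, and 12 were lower and 3 higher in OVCAR8 than in OVCAR4. Of all genes tested, 30.1% were higher and 31.6% lower in OVCAR4 than in Kuramochi. In OVCAR8 35.3% were lower and 33.6% higher than in OVCAR4. CLDN7, whose promoter window is printed above, read 184 CPM in OVCAR4, 1.34 CPM in Kuramochi and 0.213 CPM in OVCAR8, and CRB3 read 30.9, 0.330 and 0.140 CPM in the same order. Both were called in each pair of lines. On 3D neither was called in any line, with CLDN7 at 184, 1.54 and 0.452 CPM. Between cultures 6 of the 17 were higher in Kuramochi and none lower, with ST14, a membrane protease of epithelia, leading at 2.80 against 1.40 CPM (adjusted p = 0.0350). In OVCAR4 4 were higher, led by CLDN1 (174 against 77.4 CPM, adjusted p = 0.0102), and PKP3 of desmosomes was lower (66.2 against 93.2 CPM, adjusted p = 0.0206). In OVCAR8 none of the 17 was called.

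Of 10 regulators of epithelial identity, 7 were higher and 1 lower in OVCAR4 than in Kuramochi on plastic, and 7 were lower and 1 higher in OVCAR8 than in OVCAR4. The shares of all genes in these comparisons are those given for the junction genes. ELF3, an epithelial ETS factor, was the single member called between cultures, higher on 3D in Kuramochi (27.3 against 5.88 CPM, log2 change 2.23, SE 0.30, adjusted p = 0.000125) and in OVCAR4 (275 against 105 CPM, log2 change 1.39, SE 0.27, adjusted p = 0.00249).

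Among 15 mesenchymal effector genes, 6 were higher and 1 lower in Kuramochi, 7 and 1 in OVCAR4, and 3 and 0 in OVCAR8. TGFBI, a secreted matrix protein, went from 2 counts on plastic to 2508 on 3D in Kuramochi (0.0189 to 28.1 CPM). FN1, the gene of fibronectin, went from 0.306 to 216 CPM in OVCAR4, and MMP2, a gelatinase, from 0 to 30.3 CPM in OVCAR8 (at least 1034-fold higher). TPM2, a tropomyosin, was lower on 3D in Kuramochi (306 against 502 CPM, adjusted p = 0.0166) and OVCAR4 (244 against 423 CPM, adjusted p = 0.0101). Of 8 other classical cadherins, 3 were higher in Kuramochi, 3 in OVCAR4 and 2 in OVCAR8, and none was lower. CDH11, a cadherin of fibroblasts and bone-forming cells, led in every line, at 4.27 CPM on 3D against 0 counts in Kuramochi (at least 138-fold higher), 4.92 CPM against 0 counts in OVCAR4 (at least 156-fold) and 7.59 against 1.43 CPM in OVCAR8. Fibroblasts express FN1, MMP2, TGFBI and CDH11, and the part of the fibroblast RNA in these rises was not tested.

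Over the 18 libraries the members fell into the same blocs that the lines show. As a description with no test, since the libraries share their line, the Pearson correlation of log2 levels was 0.97 between VIM and ZEB1, 0.97 between CDH2 and ZEB1, 0.95 between TWIST2 and ZEB2 and 0.77 between CDH1 and CDH3. CDH1 ran against VIM (-0.94) and ZEB1 (-0.94), and its correlation with SNAI1 was 0.21. Among 13654 protein-coding genes, those most like CDH1 were MARVELD2 (a tricellular junction protein, 0.99), ZNF616 and TMEM30B, each highest in OVCAR4. For VIM they were EHD2, LDOC1 and REC8, for CDH2 AGFG1, CRK and NOP9, and for CDH3 NAMPT, B3GNT7 and ZDHHC9. TWIST2 was most like FOXD1, which read 186 CPM in OVCAR8, 2.70 CPM in Kuramochi and 0 in OVCAR4 on plastic, followed by GATA3 and PLCL2. ZEB1 was most like FLNC, an actin cross-linker at 1531, 871 and 2.86 CPM in OVCAR8, Kuramochi and OVCAR4 on plastic, followed by DNAJB4 and NOM1. The remaining nearest genes were APBB2, NBPF20 (of a family of near-identical copies, so uncertain) and SLC35A3 for ZEB2, CMTM3, HDX and PPP1R18 for SNAI2, EID3, OXA1L and TLE4 for TWIST1, and MAP1LC3A, LYPLA2 and YPEL3 for SNAI1.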

How the data were processed

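RNA from polyadenylated transcripts was sequenced in 18 libraries by the authors. The values used are raw counts of reads per gene, deposited by the authors with no scaling. Per the labels and the study's methods, trimming used Trimmomatic 0.33, and reads were aligned to GRCh38 with TopHat2 2.1.0 and counted with HTSeq 0.5.4p1 on GENCODE 25, and the study tested with DESeq2 1.12.3. Gene IDs were named by GENCODE 44, which matched 57532 of 58288 IDs.

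Differences were tested in edgeR 4.0.16 (R 4.3.3) by its robust quasi-likelihood fit, with TMM factors (0.944 to 1.12) and filterByExpr (minimum count 10, minimum total 15), with all 6 groups in 1 model. P-values were adjusted by Benjamini-Hochberg over 22023 genes within each contrast. CPM values were computed from the deposited counts. A fold against a group at 0 counts is a lower bound from 3 counts over the group. The pipeline was tested on simulated data. Also tried were RLE factors, a replicate block, DESeq2 1.42.0, all genes without the filter, the fit of only the groups compared, summed close libraries, a 2-fold minimum and leaving out each library. Same-numbered 3D and plastic libraries of Kuramochi deviated together (correlations 0.17, 0.13 and 0.28), while in OVCAR4 (0.32, 0.09 and 0.15) and OVCAR8 (0.10, 0.11 and -0.08) not every pair passed 0.1.

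The members and lists were chosen with earlier results of these data known. All members are named. From each further list the called gene with the largest rise and the largest fall in each line is named (mean of at least 1 CPM in a culture), and for each member the 3 protein-coding genes with the highest Pearson correlation of log2(CPM + 0.5). The junction genes CLDN7 and CRB3 were named after their promoter windows were seen. Exon lengths per gene are the union of annotated exons, and the MANE Select length was an alternative chosen after seeing the data. Lists of cancer cell, fibroblast, mesothelial, endothelial and leukocyte markers and of EMT regulators, epithelial identity regulators, junction genes, mesenchymal effectors and cadherins were used.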

Additional observations from a re-analysis of the deposited data

Results flagged for a closer look

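The change with culture differed between the lines, by the edgeR test of the interaction of line and culture, for ZEB2 (adjusted p = 1.69e-05), SNAI2 (adjusted p = 0.00826) and VIM (adjusted p = 0.0215). ZEB2 and SNAI2 had 0 counts in every OVCAR4 library on plastic and 26 to 34 and 17 to 37 counts on 3D, while in OVCAR8 neither was called. VIM rose 3.06-fold in OVCAR4 and was not called in Kuramochi or OVCAR8.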

How the results depend on the processing

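Most results kept their direction and their side of the threshold. Of the comparisons of a result with an alternative, 1541 did, 35 gained a call and 40 lost one. Another 22 changed sign or, for TWIST1 in OVCAR4 without 3D library 4, went to 0. None of these 22 was a difference that had been called. Of the 10 genes, 5 were called in Kuramochi, against 8 without the filter on low counts and 3 with a 2-fold minimum, and 4 to 6 without single libraries. The fit without the filter gave far smaller adjusted p-values for several members. Examples are CDH3 in OVCAR8 (4.00e-09 against 0.147) and the interaction of CDH3 (2.18e-12 against 0.168). Its added calls are therefore not read as support. In OVCAR8 none was called, against 2 without the filter, 2 with the replicate block (CDH1 0.0357 and CDH3 0.0384), 1 in the fit of only the 2 groups compared, and 0 to 2 without single libraries. The interaction passed for 3, against 6 without the filter, 5 with DESeq2, 1 with the close libraries summed and 2 to 6 without single libraries. In OVCAR4 4 were called, against 6 without the filter or in the fit of only the 2 groups compared (CDH1 and CDH3 added), 5 with the replicate block (CDH1 added) and 4 when each library was left out in turn. The count was 9 to 10 without single libraries for OVCAR4 against Kuramochi, 5 to 6 for OVCAR8 against Kuramochi and 10 for OVCAR8 against OVCAR4.

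With the replicate block CDH1 was also called in OVCAR4 (0.0156) and the interaction of CDH3 passed (0.0463). Whether library numbers pair the libraries of OVCAR4 and OVCAR8 is not known. Same-numbered libraries had correlations of 0.32, 0.09 and 0.15 in OVCAR4 and of 0.10, 0.11 and -0.08 in OVCAR8. In OVCAR4 libraries with unlike numbers ran from -0.27 to 0.17. No paired analysis was possible between lines because numbers run within a line.

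The CDH2 change in OVCAR8, -0.0017 on the log2 scale, was 0.0147 with RLE factors, 0.0452 without the filter, 0.0030 with the replicate block, 0.0170 in the fit of 2 groups, 0.0646 with close libraries summed, 0.0165 with DESeq2 and -0.0618 to 0.0501 without single libraries. VIM in OVCAR8 was 0.0220 with close libraries summed and -0.23 to 0.0043 without single libraries. Without single libraries the log2 change ran from -0.58 to 0.0606 for TWIST2 in Kuramochi, 0.0 to 2.33 for TWIST1 in OVCAR4 (which rests on 1 count), -0.0784 to 0.20 for TWIST2 in OVCAR8, and, for OVCAR8 against Kuramochi, -0.44 to 0.12 for TWIST1 and -0.0456 to 0.59 for ZEB1. The cause of these shifts was not tested. Depth limits CDH1 in Kuramochi and the 5 factors at or near 0 in OVCAR4, where a few counts decide a fold.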

Other observations

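Markers of other cell types of the omentum were also counted. Of 10 fibroblast markers 8 were higher in Kuramochi, 10 in OVCAR4 and 7 in OVCAR8, and none was lower. Of all genes tested, 14.4%, 15.2% and 7.51% were higher and 12.8%, 11.9% and 3.32% lower in the same order. These shares stand beside the marker counts that follow as well. COL1A2 read 164 CPM on 3D and 0.0369 CPM on plastic in Kuramochi and 325 CPM against 0 counts in OVCAR8, and COL3A1 read 227 against 0.0417 CPM in OVCAR4. Of 6 mesothelial markers tested, 3 were higher and 1 lower in Kuramochi, 4 were higher in OVCAR4 and 3 in OVCAR8. PRG4, a lubricating proteoglycan of serosal surfaces, went from 0 counts to 2.69 CPM in Kuramochi and from 1 to 196 counts in OVCAR8, LRRN4 rose from 2.37 to 5.94 CPM in OVCAR4, and UPK3B fell from 57.2 to 23.6 CPM in Kuramochi.

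Cancer cell markers moved in both directions, with 1 of 9 higher and 1 lower in Kuramochi, 3 and 3 in OVCAR4 and none in OVCAR8. MUC16, the CA-125 antigen, rose from 0.613 to 4.30 CPM in Kuramochi and from 118 to 387 CPM in OVCAR4. SOX17, a factor of Müllerian epithelium, fell from 223 to 89.5 CPM in Kuramochi, and KRT18 fell from 1436 to 765 CPM in OVCAR4. Of 4 endothelial markers, 2 were higher and 1 lower in Kuramochi (CDH5, 8.33 to 16.2 CPM, and VWF, 3.46 to 1.69 CPM), 1 was higher in OVCAR4 and 1 in OVCAR8 (KDR, 0.591 to 1.70 CPM). Of 4 leukocyte markers only CD68, a lysosomal protein, had enough counts to be tested, and it rose in all 3 lines: from 1.90 to 3.58 CPM in Kuramochi, from 12.7 to 26.5 CPM in OVCAR4 and from 21.5 to 86.0 CPM in OVCAR8.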
